A study of Mus musculus with 2 samples.

Results

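The Vmn2r genes encode the type 2 vomeronasal receptors of the mouse. They were taken here as every protein-coding gene of the GENCODE annotation whose symbol is Vmn2r followed by a digit, which gave 120 of 21938 protein-coding genes. The rule for membership used symbols only and no measured value, but the family was chosen with earlier results of these data known. The family belongs to a sense organ of the nose, and its chromatin was examined here in embryonic hindbrain, at its promoters and across the gene clusters it fills.

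Accessible chromatin was measured by DNase-seq, in which DNase I cuts DNA that is not covered by nucleosomes and the cut sites are sequenced. The tissue was hindbrain of healthy mouse embryos of strain B6NCrl at 11.5 days, with male and female embryos pooled. There was 1 group of 2 libraries, biological replicates 1 and 2, and no treatment or second tissue. The labels give the libraries separate tissue samples of the same donor record, so they are 2 samples of a single condition.

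Type 2 vomeronasal receptors are class C G-protein-coupled receptors with a large extracellular domain that binds peptide and protein pheromones. They are made by sensory neurons of the basal layer of the vomeronasal organ, which signal through the G protein subunit encoded by Gnao1 and the channel encoded by Trpc2. Each neuron is known to express 1 or a few of the clustered genes, together with a member of the small family C subgroup, Vmn2r1 to Vmn2r7, that is shared by many neurons. Hindbrain holds no vomeronasal neurons, and bulk tissue cannot tell a few open cells from none.

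Peaks are 150 bp intervals of high cut density, each with a height given by the authors. Overlapping peaks, within a library or between them, were merged into a site, and a site with a peak of both libraries is called shared. The analysed lists held 150176 peaks in replicate 1 and 194873 in replicate 2, which merged into 231068 sites, 97657 of them shared. Median peak height was 36 in replicate 1 and 50 in replicate 2. Read depth was not given in the sources used here, so a missing peak means only that none was called at an unknown depth. Of 20 hindbrain reference genes, 18 had a peak of both libraries within 1 kb of a start, among them Egr2 of the hindbrain rhombomeres. Hoxa2 (height 116) and Hoxb1 (height 90) had one in replicate 2 alone. Emx1, a marker of forebrain, had a peak in both libraries too (heights 44 and 107). A promoter peak is therefore not read here as a mark of hindbrain expression, which was not measured.

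The 120 genes have 142 annotated starts and lie on 8 chromosomes. Joining members less than 1 Mb apart, with at least 3 members, gave 11 clusters on 6 chromosomes that hold 113 members in 13410 kb. The 7 members outside clusters are Vmn2r18, Vmn2r28, Vmn2r88, Vmn2r89, Vmn2r118, Vmn2r120 and Vmn2r121.

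The promoters of the first member of each of the 3 clusters with most members show what this DNA looks like. Each line gives the 250 bases before the 5′-most GENCODE start in the mm10 genome sequence, 5′ to 3′ on the gene's own strand, with every CG dinucleotide in capitals.
Vmn2r29 (chr7:7247329-7247578, minus strand): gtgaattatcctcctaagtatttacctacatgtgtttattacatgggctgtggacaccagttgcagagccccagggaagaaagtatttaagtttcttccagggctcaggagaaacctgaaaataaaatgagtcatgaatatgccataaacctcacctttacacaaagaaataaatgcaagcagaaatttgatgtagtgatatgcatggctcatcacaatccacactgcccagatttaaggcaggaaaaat
Vmn2r90 (chr17:17703497-17703746, plus strand): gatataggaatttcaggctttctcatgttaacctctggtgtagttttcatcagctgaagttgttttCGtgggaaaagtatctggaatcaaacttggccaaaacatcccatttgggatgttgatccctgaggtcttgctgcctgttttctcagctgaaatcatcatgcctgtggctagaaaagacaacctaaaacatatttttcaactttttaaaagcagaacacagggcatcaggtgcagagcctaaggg
Vmn2r65 (chr7:84964116-84964365, minus strand): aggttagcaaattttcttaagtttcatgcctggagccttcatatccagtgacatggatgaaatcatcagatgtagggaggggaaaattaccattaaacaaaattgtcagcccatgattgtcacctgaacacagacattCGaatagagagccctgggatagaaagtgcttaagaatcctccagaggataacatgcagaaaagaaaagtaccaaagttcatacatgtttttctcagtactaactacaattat
Vmn2r29 had no CG in these bases, and Vmn2r90 and Vmn2r65 had 1 each. Because each window ends before the 5′-most start, it holds no exon of its own gene's transcripts used here.

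Near copies are common among these promoters. Vmn2r46, of the same chromosome 7 cluster as Vmn2r29, is shown on the same terms, but with the bases that differ from Vmn2r29 in capitals.
Vmn2r46 (chr7:9770572-9770821, minus strand): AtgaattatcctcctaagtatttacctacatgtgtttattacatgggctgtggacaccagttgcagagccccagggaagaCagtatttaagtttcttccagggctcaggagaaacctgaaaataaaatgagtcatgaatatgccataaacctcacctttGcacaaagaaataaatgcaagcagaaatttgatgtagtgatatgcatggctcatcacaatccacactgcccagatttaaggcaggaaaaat
The 2 sequences differed at 3 of 250 aligned positions, an identity of 98.8%. A short read from such a stretch fits several places in the genome, which bears on every count below. Of the 120 members, 28 had another member whose promoter, from 250 bases before to 50 bases after the start, was at least 90% identical over the alignment. In the same comparison 68 had one at least 80% identical, 21 had none that reached 60%, and the median best identity was 81.8%. For 100 of the 120 the closest promoter lay in the same cluster. Starts are annotated unevenly across the family, so these identities also depend on where GENCODE places each start.

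No member had a promoter peak. Within 1 kb of a start, 0 of 120 members had a peak in replicate 1, where 67.1% of all protein-coding genes had one. The count was 0 of 120 in replicate 2 as well, against 69.5% of all genes. For a peak of both libraries the background was 65.9%, and for a peak of either library 70.2%, again against 0 of 120. A count of 0 of 120 allows a share of up to 2.5% by the rule of 3 counts, and the exact 95% Clopper-Pearson upper limit was 3.03%. Both limits cover counting error only, and the members share sequence, so they are not 120 independent draws.

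Hotspots, the authors' broader regions of raised cutting, gave the same count. No member had a hotspot within 1 kb of a start in either library, against 67.2% of all genes in replicate 1 and 69.8% in replicate 2. The count stayed at 0 with a window of 500 bp, with all annotated transcripts, and with the 5′-most start alone. With a window of 2500 bp it became 1, and that gene was Vmn2r7.

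Most mouse promoters that are open in many tissues are CpG islands, stretches where CG dinucleotides have been kept. The Vmn2r promoters are not of this kind. Their ratio of observed to expected CG in the 1001 bp around the start had a median of 0.101 and reached at most 0.277, while the median of the other protein-coding genes was 0.575. Median GC content was 36.4% for members and 55.2% for the others. The low values are not particular to Vmn2r genes. Among other chemoreceptor genes, the median ratio was 0.0911 for Vmn1r and 0.106 for Olfr genes, with median GC of 38.0% and 36.5%. In the window from 250 bases before to 50 after the start, members had a median of 1 CG, between 0 and 4, where other genes had a median of 12. No CG at all was found in 43 of the 120 member windows (35.8%) and in 4.93% of the other genes' windows.

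Genes of similar CG content gave a lower background, still above 0. Among other genes whose CG ratio lay within the members' range, 863 of 6508 (13.3%) had a promoter peak of both libraries. When the other chemoreceptor families (Vmn1r, Olfr, Taar and Fpr genes) were left out, the share was 850 of 5178, or 16.4%. Within the quartiles of the members' ratio, which hold 60 members, 7.74% of other genes had one. The count of members was 0 in each class.

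Repeated sequence was measured as the share of positions whose 31-base word occurs once in the genome on either strand, called the unique share. Within 1 kb of a start the unique share had a median of 75% over members, from 0 to 100%, and was under 50% for 36 of them. It was 98.5% at the median for other genes. The 49 members with a unique share of at least 80% had no promoter peak, which allows a share of up to 7.25% (exact upper limit). Other genes with the members' range of CG ratio and the same unique share had one in 812 of 4654 cases (17.4%). For the 71 members below 80% unique, the matching background was 51 of 1854 genes, or 2.75%, and lies within the members' upper limit of 5.06%. For a peak of either library that background was 110 of 1854, or 5.93%, above the same limit, and the members' count was again 0. Vmn2r53, Vmn2r83 and Vmn2r118 had wholly unique promoters and no peak either.

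**Figure D1:**
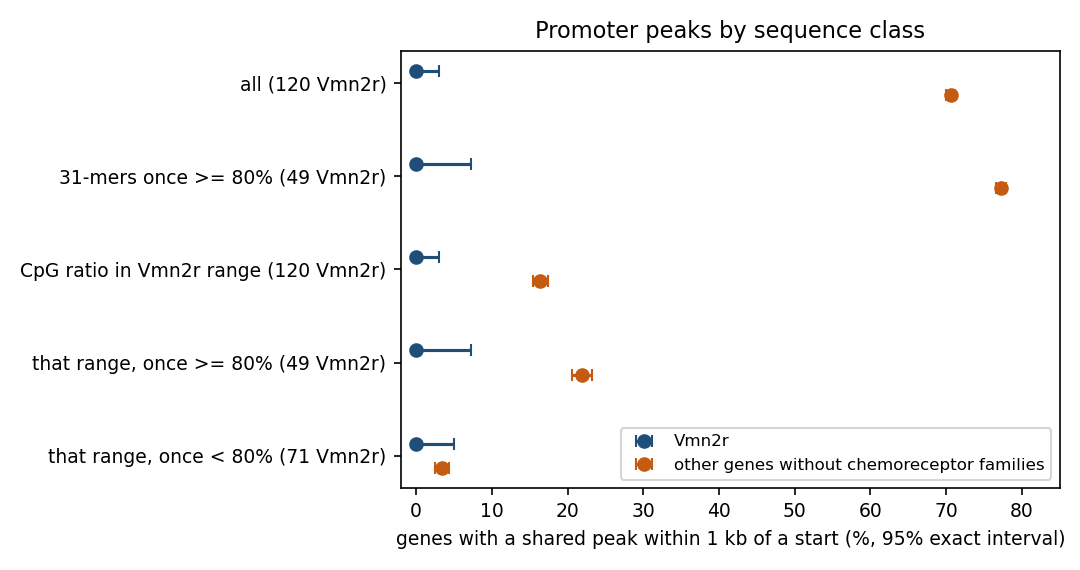
Share of genes (x axis, percent) with a shared peak within 1 kb of a start, for Vmn2r genes (blue) and other genes outside the chemoreceptor families (orange), in 5 sequence classes; points are shares and bars exact 95% intervals. The Vmn2r share is 0 in every class, while the background falls from 70.6% over all genes to 3.35% for CpG-poor, repeated promoters.

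Short motifs in these windows were counted on both strands as a description. The TATA box letters TATAAA occurred in 27 of 120 member windows (22.5%) and in 12.5% of the other genes' windows of the same length. TAATTA, the core read by many homeodomain proteins, occurred in 16.7% of member windows and 5.06% of the others. CCCNNGGG, the core bound by Ebf factors of olfactory neurons, occurred in 25.8% against 16%. The E-box CAGCTG occurred in 12.5% against 15.6%. GGGCGG, the GC box bound by SP and KLF factors, was in 0 of 120 member windows and in 45.1% of the others. TGACG, the core of the cAMP response element, was in 5.0% against 23.6%. Each motif was counted on its own, and matches of different motifs may overlap. A match in a window is not evidence of binding. The other genes' windows were not matched to the members' in GC or CG content, which differed as given above. Many member windows are near copies of each other, so their matches are not independent counts. The part of base composition in these shares was not tested.

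Site density was then counted across whole clusters. The 11 clusters held 212 sites in 13410 kb, which is 1.58 sites per 100 kb (exact 95% Poisson interval 1.38 to 1.81, counting error only). At the densities of their own chromosomes the same spans would hold 9.40 per 100 kb, so the clusters had 0.168 times that density (0.146 to 0.192). Each library alone also gave low densities. Replicate 1 had 166 peaks in the clusters, 1.24 sites per 100 kb against 6.18 on the chromosomes, and replicate 2 had 170 peaks, 1.27 against 7.97. Shared sites numbered 69 and had 0.127 times the chromosomes' density.

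**Figure D2:**
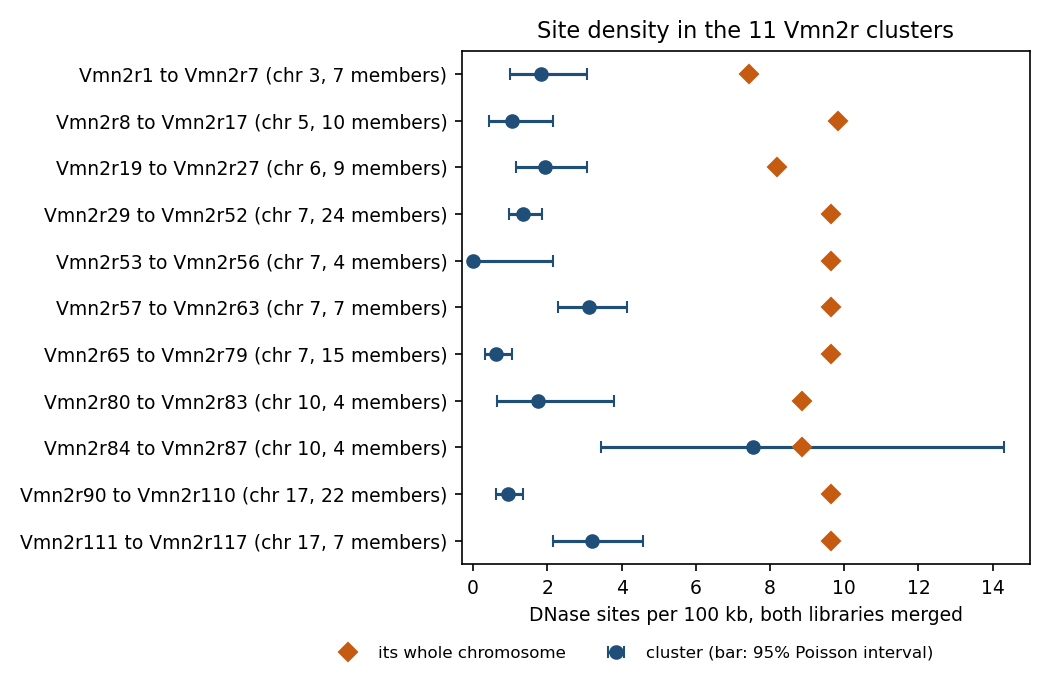
Sites per 100 kb (x axis) in each of the 11 clusters, listed by first and last member; blue points are clusters with exact 95% Poisson intervals, and orange diamonds are the whole chromosome. Cluster values lie below the chromosome in 10 clusters with intervals that do not reach it, and the Vmn2r84 to Vmn2r87 interval includes it.

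Repeat content was high in the clusters, with 51.0% of positions unique against 78.6% on the same chromosomes. When only unique positions were counted on both sides, with sites whose central word is unique, 172 sites remained in clusters. Their density was 2.51 per 100 kb against 11.7, or 0.216 times. On unique sequence the clusters remained less dense, at a factor (0.185 to 0.251) above the 0.168 (0.146 to 0.192) of all positions. Against the bases between genes of the same chromosomes, in place of whole chromosomes, the factor was 0.221. For that factor the cluster side kept all its sites and bases, those inside genes included.

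The clusters differed among themselves. No site fell in the smallest cluster of chromosome 7, Vmn2r53 to Vmn2r56, a span of 172.2 kb with 4 members, where the upper limit is 2.14 per 100 kb. The highest density was that of Vmn2r84 to Vmn2r87 on chromosome 10, with 9 sites in 119.5 kb, or 7.53 per 100 kb (3.44 to 14.3) against 8.86 on its chromosome. Because that cluster is short, its interval spans the chromosome's value. The other clusters lay between 0.616 and 3.21 per 100 kb.

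Among the large clusters, Vmn2r65 to Vmn2r79 on chromosome 7 had 13 sites in 2109 kb (0.616 per 100 kb) and a unique share of 73.2%, close to the 76.1% of the chromosome. Vmn2r90 to Vmn2r110 on chromosome 17 had 27 sites in 2893 kb (0.933) at 73.4% unique. Both are thus sparse on sequence that is mostly unique. Vmn2r29 to Vmn2r52 on chromosome 7, the cluster with most members, had 40 sites in 2945 kb (1.36) with only 8.24% of positions unique. Its sites were not spread evenly. All 11 shared ones lay between chr7 positions 7277676 and 7300865, in or beside the genes Gm45844 and Clcn4. Every site of the cluster outside those positions was called in 1 library, at heights of 3 to 10. In that cluster replicate 1 had 40 peaks and replicate 2 had 23, although replicate 2 has more peaks overall. Vmn2r57 to Vmn2r63 and Vmn2r111 to Vmn2r117 were denser, at 3.12 and 3.21 per 100 kb. The denser clusters Vmn2r57 to Vmn2r63 and Vmn2r111 to Vmn2r117 hold 13 and 3 protein-coding genes that are not members. The sparse clusters Vmn2r65 to Vmn2r79 and Vmn2r90 to Vmn2r110 hold 16 and 10. Vmn2r-ps130, in Vmn2r111 to Vmn2r117, is counted there because its symbol falls outside the membership rule. These counts do not separate kinds of gene, such as other receptor genes and zinc finger genes, and their part in the density was not tested.

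The remaining clusters differed by less than their counting intervals. Vmn2r1 to Vmn2r7 on chromosome 3 had 14 sites (1.83 per 100 kb), Vmn2r8 to Vmn2r17 on chromosome 5 had 7 (1.05), Vmn2r19 to Vmn2r27 on chromosome 6 had 18 (1.95), and Vmn2r80 to Vmn2r83 on chromosome 10 had 6 (1.74). Outside the clusters, the pair Vmn2r88 and Vmn2r89 on chromosome 14 had 6 sites in 53.35 kb, or 11.2 per 100 kb (4.13 to 24.5) against 7.51 on the chromosome. All 6 lay in Gm7247, a protein-coding gene between them.

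The sites that did occur were denser near protein-coding genes that are not members. Within 10 kb of another protein-coding gene, the clusters had 101 sites in 1539 kb, a density of 6.56 per 100 kb and 0.680 times the chromosomes' value. Beyond 10 kb of any such gene they had 111 sites in 11871 kb, 0.935 per 100 kb and 0.0998 times. This split was chosen after the sites had been seen. Across member gene bodies with 5 kb to each side, the factor was 0.113.

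The 3 highest shared sites of the clusters, by mean rank of height, lie at such neighbours and are printed on the plus strand with CG in capitals.
Site beside Spaca6 (chr17:17826896-17827065, plus strand): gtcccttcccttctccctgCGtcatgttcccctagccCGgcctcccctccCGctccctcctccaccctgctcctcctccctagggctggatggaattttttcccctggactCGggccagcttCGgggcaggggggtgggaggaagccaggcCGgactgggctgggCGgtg
Site beside Zfp788 (chr7:41632956-41633125, plus strand): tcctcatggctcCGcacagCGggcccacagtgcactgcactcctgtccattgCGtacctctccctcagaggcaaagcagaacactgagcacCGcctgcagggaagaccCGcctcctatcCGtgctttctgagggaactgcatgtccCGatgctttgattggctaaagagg
Site in Clcn4 (chr7:7298336-7298525, plus strand): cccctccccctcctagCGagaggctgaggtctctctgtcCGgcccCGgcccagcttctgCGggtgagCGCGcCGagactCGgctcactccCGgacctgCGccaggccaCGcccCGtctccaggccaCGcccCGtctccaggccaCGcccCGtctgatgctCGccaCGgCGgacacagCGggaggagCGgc
The first lies 178 bp from Spaca6, a sperm-egg fusion gene beside a microRNA cluster, with heights of 112 in replicate 1 and 131 in replicate 2. The second lies 163 bp from the zinc finger gene Zfp788, with 104 and 134. The third lies inside the chloride transporter gene Clcn4, with 107 and 131. The 3 sites held 7, 7 and 21 CG in 170, 170 and 190 bases, more than the 0 or 1 in the member promoters above.

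Further high sites lay both in such genes and away from them. In the Vmn2r90 to Vmn2r110 cluster the next 2 were inside Spaca6, with heights of 102 and 132 and of 98 and 124. In Vmn2r29 to Vmn2r52 the next 2 were both in Clcn4 exons, with 93 and 120 and with 72 and 91. Vmn2r57 to Vmn2r63 had further high sites in exons of Zfp788 (107 and 126) and 2610021A01Rik (104 and 122). In Vmn2r111 to Vmn2r117 the highest site, with 95 and 110, was 28907 bp from the nearest gene of another family, the zinc finger gene Zfp945, and was followed by sites in exons of Zfp40 (82 and 105) and Zfp945 (80 and 104).

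In 4 other clusters the highest sites were lower. In Vmn2r19 to Vmn2r27 the highest had heights of 41 and 49, at chr6:123657096-123657265, and its central word occurs 7 times in the genome. Vmn2r65 to Vmn2r79 holds 16 protein-coding genes that are not members. Its highest site had 46 and 55, and the next was in an exon of Vmn2r76, with 42 and 58. The third there, in an exon of Folh1, was called in replicate 1 alone with 41. A peak of replicate 2, with 55, lay beside it in a Folh1 exon without overlapping it. Of the 7 sites in Vmn2r8 to Vmn2r17, 2 were shared, at 26 and 51 in an exon of Vmn2r9 and at 35 and 57 near it. Of the 6 in Vmn2r80 to Vmn2r83, 1 was shared, with 38 and 48, and the other 5 were called in 1 library at heights of 9 to 42.

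The 9 sites of the densest cluster were gathered in a small part of it. In Vmn2r84 to Vmn2r87, 8 of the 9 lay between chr10 positions 130469496 and 130474265, in the processed pseudogene Gm18755, beside it, or in the body of Vmn2r87. The highest of them is printed on the plus strand with CG in capitals, as the highest site of the densest cluster.
Site in Gm18755 (chr10:130470376-130470525, plus strand): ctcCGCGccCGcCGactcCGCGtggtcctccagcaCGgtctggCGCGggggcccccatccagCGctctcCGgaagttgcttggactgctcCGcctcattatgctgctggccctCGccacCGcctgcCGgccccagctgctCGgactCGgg
Its heights were 70 and 114 in replicates 1 and 2, and it held 17 CG in 150 bases. It lies 14400 bp from the nearest member start, that of Vmn2r86, and its central word is unique. The other shared site, beside it, had 33 and 76.

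Within member genes, sites were few. Of the 120 gene bodies, 97 held no site and 23 held 32 in all. A shared site was found in 4 members, namely Vmn2r7, Vmn2r9, Vmn2r76 and Vmn2r114. The shared site of Vmn2r114 was low, at 17 and 13. These counts of gene bodies were not made over all protein-coding genes, so no background share stands beside them. Only the density across member bodies with 5 kb to each side, at 0.113 times the chromosomes' value, has a background.

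Vmn2r7, of the family C subgroup, had the most. Its annotated body spans 159.7 kb and holds 4 sites, all outside exons of GENCODE's protein-coding genes, 2 of them shared. The shared sites are printed on the plus strand with CG in capitals.
Vmn2r7 intron, higher site (chr3:64791016-64791185, plus strand): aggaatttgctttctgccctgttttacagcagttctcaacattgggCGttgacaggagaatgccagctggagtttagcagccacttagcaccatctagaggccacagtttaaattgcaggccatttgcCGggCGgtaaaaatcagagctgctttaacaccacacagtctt
Vmn2r7 intron, site nearer a start (chr3:64842416-64842565, plus strand): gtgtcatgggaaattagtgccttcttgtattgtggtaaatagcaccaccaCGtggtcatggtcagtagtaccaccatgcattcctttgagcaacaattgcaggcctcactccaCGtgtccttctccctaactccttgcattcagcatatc
The higher had 68 in replicate 1 and 84 in replicate 2, and the other had 59 and 71. The second lies 2275 bp from a Vmn2r7 start and is the site that enters the count at a window of 2500 bp. Both words at their centres are unique, and both also lie within the noncoding transcript Gm26939. The remaining sites were called in 1 library each, at 17 in replicate 1 and 13 in replicate 2.

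The rest of family C was like the other members. Vmn2r1, Vmn2r2, Vmn2r3, Vmn2r4 and Vmn2r6 had no site in the gene body, and Vmn2r5 had 2, neither shared. From their starts the nearest site lay 40.5 kb away for Vmn2r1, 85.5 kb for Vmn2r2, 32.3 kb for Vmn2r3, 13.1 kb for Vmn2r4, 18.6 kb for Vmn2r5 and 22.0 kb for Vmn2r6. Unique shares around these starts ranged from 5.5% at Vmn2r5 to 97.5% at Vmn2r3.

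Distances to the nearest site were long throughout the family. From a member's start to the nearest site centre, the median was 39.3 kb, the lowest 1.69 kb and the highest 1040 kb. The other protein-coding genes had a median of 86 bp. With peaks of replicate 1 alone the members' median was 55.6 kb, with replicate 2 alone 58.1 kb, and to a shared site 139 kb. Of the 120 members, 105 (87.5%) were over 10 kb from any site, against 16.3% of other genes. Only 4 were within 5 kb.

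**Figure D3:**
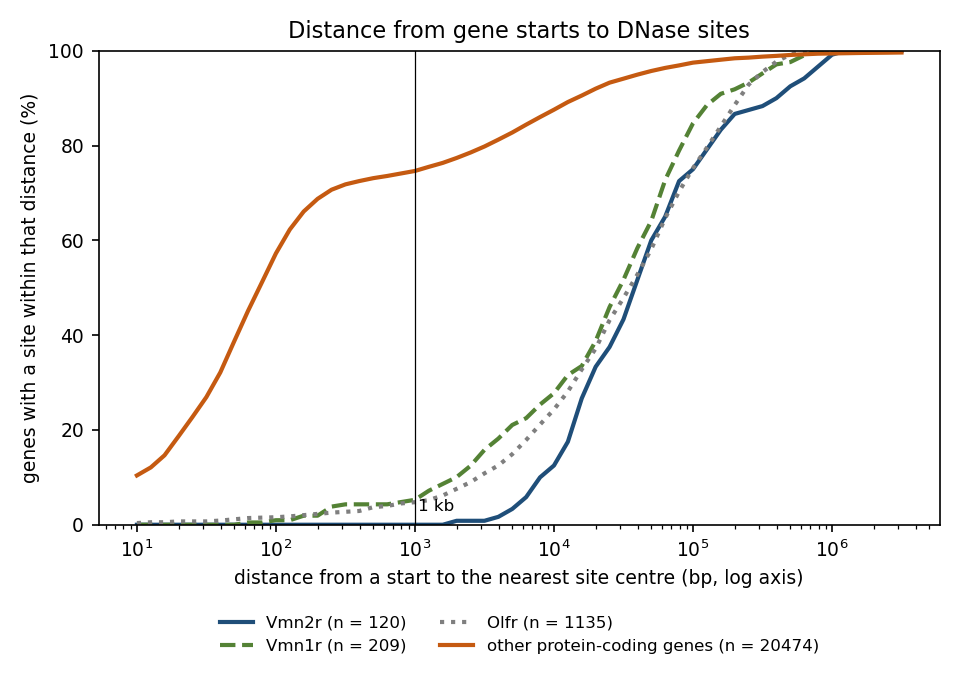
Percent of genes (y axis) with a site centre within a given distance of a start (x axis, bp, log scale) for Vmn2r, Vmn1r, Olfr and other protein-coding genes. The Vmn2r curve stays at 0 until 1693 bp. At 10 kb it reaches 12.5%, below 27.75% for Vmn1r and 24.3% for Olfr genes. At 100 kb it reaches 75%, beside 84.7% for Vmn1r and 75.2% for Olfr genes. Of the genes outside these families, 74.6% have a site centre within 1 kb.

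The 5 members nearest to a site were Vmn2r7 (1.69 kb), Vmn2r57 (3.39 kb), Vmn2r18 (4.09 kb), Vmn2r23 (4.79 kb) and Vmn2r48 (5.48 kb). Those sites were low. The one at Vmn2r7 had 17 in replicate 1 alone, at Vmn2r57 37 in replicate 2 alone, at Vmn2r18 22 in replicate 2 alone, and at Vmn2r48 5 in replicate 1 alone. Only the site near Vmn2r23 was shared, with 20 and 30, and the site near Vmn2r57 lies in another gene, Gm20449.

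The 5 farthest members were all in the chromosome 17 cluster. They were Vmn2r99 (1040 kb), Vmn2r98 (910.8 kb), Vmn2r100 (897.5 kb), Vmn2r101 (825.1 kb) and Vmn2r97 (771.7 kb). In replicate 1 alone the distance of Vmn2r99 was 1040 kb and in replicate 2 alone 1112 kb. The 2 libraries thus left the same region empty.

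That region is a stretch of 2.26 Mb, chr17:18142630-20402290, with no site of either library. It holds 16 of the 22 member starts of the cluster, from Vmn2r92 to Vmn2r107, and 18 protein-coding genes in all, the other 2 being the formyl peptide receptor genes Fpr-rs7 and Fpr-rs6. It contains no N, and 72.4% of its positions are unique. Over the 21 chromosomes 53 stretches of at least 1 Mb between neighbouring sites were free of sites, and this one was 7th by length. By the amount of unique sequence in the stretch it was 2nd. The stretch just above it by that measure, chr12:61928890-64104410, holds no protein-coding gene.

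Members lay in 2 further stretches of this size. Vmn2r121 on chromosome X lies in one of 2.45 Mb, of which 20.4% is N and 5.06% unique, and 6 members of Vmn2r29 to Vmn2r52 start in one of 1.38 Mb that is 2.28% unique. In both, little of the sequence can be told apart by short words, so the absence of sites there says less than on chromosome 17. Together the 3 stretches hold 23 members.

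At the ends of the clusters, the first and last members lay between 1.69 kb (Vmn2r7) and 100.5 kb (Vmn2r79) from a site. Vmn2r90 and Vmn2r110, the ends of the cluster that holds the 2.26 Mb stretch, were 7.80 kb and 41.3 kb away. Vmn2r29 and Vmn2r52 were 30.4 kb and 7.72 kb away, and Vmn2r65 was 57.1 kb away. Members outside clusters ranged from 4.09 kb (Vmn2r18) to 421.7 kb (Vmn2r121). Of these, Vmn2r89 was 10447 bp, Vmn2r120 15.2 kb, Vmn2r88 19.5 kb, Vmn2r118 25.7 kb and Vmn2r28 62.7 kb from a site.

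Density changed across the cluster edges. The first 50 kb outside had 5.73 sites per 100 kb (4.40 to 7.33), and the next 50 kb had 10.8 (8.96 to 12.9). From 500 to 1000 kb outside it was 10.9 per 100 kb. Inside, the first 50 kb had 2.73 (1.84 to 3.89), and the part from 200 to 500 kb inside had 2.20. Over 500 kb from an edge it was 0.219 (0.113 to 0.382), with 12 sites in 5485 kb. Only the large clusters reach that deep, so depth and cluster identity cannot be told apart.

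**Figure D4:**
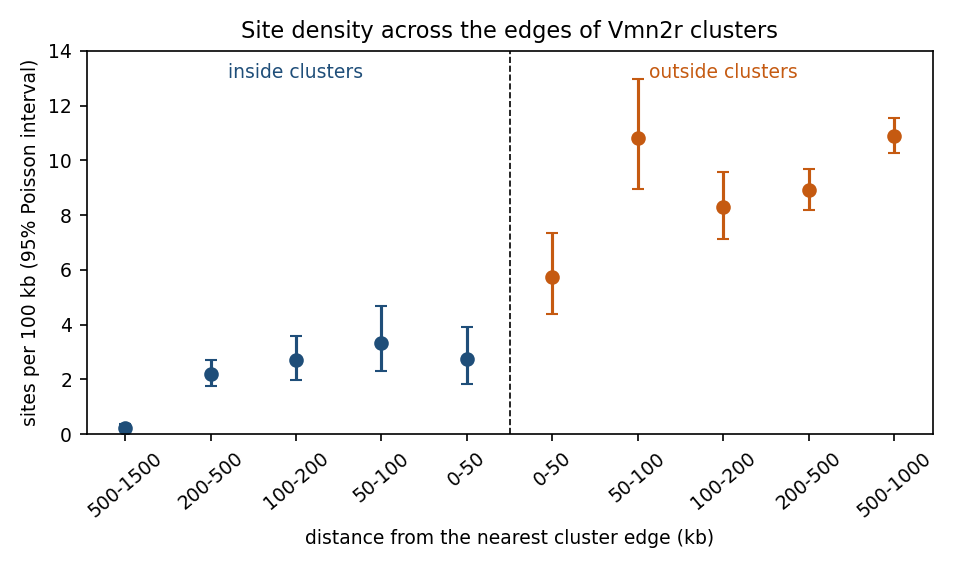
Sites per 100 kb (y axis, points with exact 95% Poisson intervals) by distance from the nearest cluster edge in kb (x axis), inside clusters in blue and outside in orange. The bins inside lie between 0.219 and 3.33 per 100 kb, and those outside between 5.73 and 10.9.

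Peaks in the clusters also had lower median heights than all peaks of their library. In replicate 1 their median height was 22 (quartiles 12 and 42, 166 peaks) against 36 over the library. Replicate 2 gave 37.5 (quartiles 21 and 72.8, 170 peaks) against 50. Beyond 10 kb of other genes the medians fell to 17 and 23, and within 10 kb they were 26 and 55. No source used here gives the scale of the heights, so heights are compared within a library only.

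**Figure D5:**
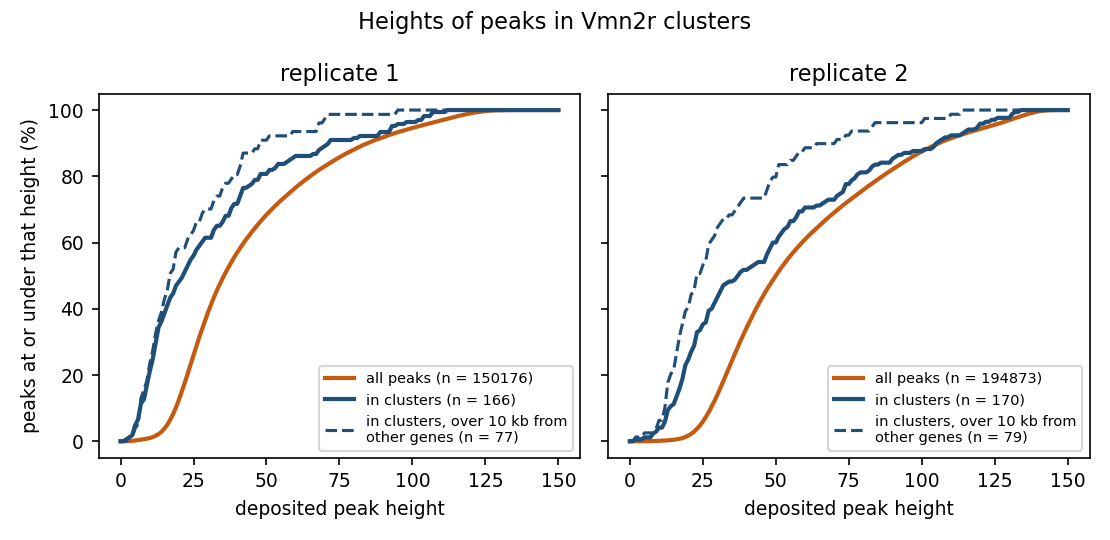
Cumulative percent of peaks (y axis) at or under a given deposited height (x axis, no unit given) in each library, for all peaks (orange), peaks in Vmn2r clusters (solid blue) and those over 10 kb from other genes (dashed blue). The cluster curves lie to the left, with medians of 22 and 37.5 against 36 and 50.

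Of the sites in clusters, 32.5% (exact 95% interval 26.3 to 39.3) were shared between the libraries, beside 42.3% of all sites. The share called in replicate 1 alone was 33% (26.7 to 39.8) against 19.7%, and in replicate 2 alone 34.4% against 38.0%. Sites of replicate 1 alone were partly gathered, in runs at Gm45844 and Clcn4 and inside Zfp141, at heights of 2 to 15. The intervals treat such neighbouring sites as independent. The central word of the site was unique for 81.1% of cluster sites and 98.2% of all sites. It occurred over 10 times for 3.77% against 0.560%. Low height and repeated sequence both went with the cluster sites, and their part in the share was not tested.

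Base composition of the cluster sites was nearer to that of shared sites elsewhere once they were shared. Over the central 150 bp, shared cluster sites had a median of 4 CG and 51.3% GC, beside 3 CG and 53.3% for all shared sites. Cluster sites of 1 library had 1 CG and 45.3% GC. Of the 69 shared cluster sites, 25 lay beyond 10 kb of any other protein-coding gene, and composition was not counted apart for these. A match to a consensus of the insulator protein CTCF, on either strand, was found in 2 of 69 shared cluster sites (2.90%) and in 6.98% of all shared sites. One of these 2 is the site in Vmn2r76, and the other lies 21980 bp from the start of Vmn2r6.

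Hotspots covered 0.270% of cluster bases in replicate 1 against 1.87% of the same chromosomes. In replicate 2 they covered 0.347% against 3.08%. Hotspots in clusters averaged 248 bp and 310 bp in length, against 342 bp and 478 bp over all hotspots.

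The other chemoreceptor families gave similarly low counts. Vmn1r genes, which encode the type 1 vomeronasal receptors of the apical neurons, had a promoter peak of both libraries in 2 of 209 (0.957%, exact 95% interval 0.116 to 3.41). These were Vmn1r4 (heights 114 and 141, CG ratio 0.896) and Vmn1r200 (30 and 36, CG ratio 0.158). The median CG ratio of Vmn1r genes was 0.0911, so the start of Vmn1r4 is unlike most of its family. Olfr genes, the odorant receptors, had one in 14 of 1135 (1.23%, 0.676 to 2.06). Taar genes had 0 of 15 and Fpr genes 0 of 5. With a peak of either library the counts were 13 Vmn1r, 55 Olfr and 1 Taar gene, against 0 Vmn2r and 0 Fpr genes. The Vmn2r interval, with its upper limit of 3.03%, includes the shares of both large families for shared peaks, so a lower share in Vmn2r genes is not shown. For a peak of either library the shares were 6.22% of Vmn1r and 4.85% of Olfr genes, above that limit, and the difference was not tested. Median distance to a site was 27.6 kb for Vmn1r genes and 34.9 kb for Olfr genes, beside 39.3 kb for Vmn2r genes.

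Genes that work with these receptors were mixed. Of 23 signalling and coreceptor genes, 9 had a promoter peak of both libraries. The G protein subunit genes were among them, with heights in replicates 1 and 2 of 102 and 130 at Gnao1, 125 and 141 at Gnai2, 81 and 124 at Gng8, 32 and 61 at Gng13 and 113 and 131 at Gnb1. Peaks also lay at B2m (111 and 123), the light chain of class I molecules, at the IP3 receptor gene Itpr3 (44 and 91), and at the chloride channel genes Ano1 (43 and 67) and Ano2 (42 and 61).

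The other 14 genes of the list had none. No peak of either library lay within 1 kb of a start at Trpc2, the channel of vomeronasal transduction, or at Omp, the olfactory marker protein. The same held for Plcb2, Calhm1 and Cnga4, and for all 9 nonclassical class I genes H2-M1, H2-M9, H2-M11, H2-M10.1, H2-M10.2, H2-M10.3, H2-M10.4, H2-M10.5 and H2-M10.6, whose products are found with Vmn2r receptors. Nearest sites were 4416 bp away for Trpc2, 3152 bp for Omp and between 8440 and 43779 bp for the H2-M genes.

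Relatives of the receptors by protein class were mostly marked. Of 15 other class C receptor genes, 12 had a promoter peak of both libraries, including the GABA-B receptor genes Gabbr1 (99 and 130) and Gabbr2 (62 and 100) and the glutamate receptor gene Grm3 (98 and 114). The 3 without one were Gprc6a and the taste receptor genes Tas1r2 and Tas1r3. All 25 transcription factor and guidance genes of vomeronasal development had one, among them Bcl11b (116 and 133), a factor of basal vomeronasal neurons, and Ebf1 (117 and 127). These factors also act elsewhere in the embryo. The lists are small and were chosen with earlier results of these data known, and their counts are descriptions beside the 65.9% of all genes.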

How the data were processed

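DNase-seq peaks and hotspots of 2 hindbrain libraries (1 group) were read as deposited. The authors aligned to mm10 and called each list on 1 library, not on pooled reads, per the file headers and the text deposited beside them. No source used here names the aligner, caller, versions, filters or depth. Peak heights, as deposited, are a signal value of unstated scaling. Hotspots have a -log10 false discovery value from the authors, whose top is written as 100, and a deposited score that was not used.

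Peaks on the 21 chromosomes were kept, repeated entries were dropped (32 and 60), and overlapping peaks (1 bp or more) were joined into sites. Starts came from GENCODE M21 basic transcripts (41525 starts), sequence from the mm10 genome of C57BL/6J. Words of 31 bases were counted over the chromosomes and unplaced contigs, after a test on simulated sequence, with Python 3.11.15, numpy 2.4.6 and numba 0.67.0. Promoters were aligned with Biopython 1.88. Shares have exact Clopper-Pearson and densities exact Poisson 95% intervals from scipy 1.17.1. With 1 group, no test across samples was possible.

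Named genes were members with a promoter peak, the 5 nearest to and 5 farthest from a site, first and last of each cluster, those outside clusters, family C, the highest sites of each cluster, and listed signalling genes with a peak. Other names were chosen after their values were seen. The members and lists were chosen with earlier results of these data known. Alternatives included other windows, transcripts, cluster gaps, single libraries and unique positions.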

Additional observations from a re-analysis of the deposited data

How the results depend on the processing

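Members with a promoter peak numbered 0 under every alternative tried except a 2500 bp window, which gave 1, and leaving out either library gave 0. The density ratio of 0.168 stayed below 1 under every alternative: it was 0.134 with a cluster gap of 250 kb, 0.127 for shared sites, 0.216 on unique positions, 0.116 for peaks at or above the library median height, 0.113 across gene bodies with 5 kb to each side, 0.221 against bases between genes and 0.0998 beyond 10 kb of other genes, the last chosen after seeing the data. Leaving out a library gave 0.159 to 0.200. Median heights of 22 and 37.5 correspond to ranks of 16.4% and 28.5% within their libraries, and replicate 2 fell to 23 beyond 10 kb of other genes. The median distance of 39.3 kb became 55.7 to 58.1 kb when a library was left out. With words of 24 bases 43.6% of cluster positions were unique. Hotspots at the top value covered 0.181% and 0.258% of cluster bases. No paired analysis was possible because there is 1 group. With depth unknown, weak sites may be missing, and repeated sequence, with 8.24% of positions unique in Vmn2r29 to Vmn2r52, limits what short reads can place.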
